A study of Mus musculus with 12 samples.

Results

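Cell cycle and mitosis genes were followed in the colon of mice of 4 genotypes: 40 genes were listed by symbol, and 38 of them had a probe set annotated with exactly 1 symbol, among 22180 such genes in all. Each gene was read from its brightest probe set by the mean over the 12 arrays, which was a choice for Mybl2 and Rrm2 alone, with 2 probe sets each. Of the 2 genes without a value here, Ccnb1 (cyclin B1) had no probe set of a single symbol and Ccne2 (cyclin E2) only a probe set shared with Ints8. RNA of the whole colon was hybridised to Affymetrix whole-transcript arrays, 3 per genotype, and the values are log2 signals, used as deposited. The genotypes were IL10+/+ STING+/+ (WT), IL10+/+ STING-/- (SKO, lacking STING), IL10-/- STING+/+ (IL10KO, lacking interleukin 10) and IL10-/- STING-/- (DKO, lacking both). The labels give no treatment, strain, age, or exons deleted. The sample titles give each array of a genotype a number of its own, but nothing in them says that the number stands for an animal. The p-values thus refer to the spread between arrays, which may be technical. The cytokine IL-10 holds back inflammation, and colitis arises in mice that lack it. STING is an adaptor of the endoplasmic reticulum that signals when DNA is found in the cytosol.

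Dividing cells of the colon are mostly the transit-amplifying cells of the crypt, whose daughters feed the surface epithelium, and activated lymphocytes in the lamina propria and lymphoid follicles divide as well. The genes that carry a cell through division are transcribed in waves. Genes for replication, such as those of the MCM helicase and of nucleotide supply, come on at the passage from G1 to S phase under E2F factors, and genes for mitosis come on in G2 under B-MYB and FOXM1 acting with the MuvB complex, which binds a short element called the cell cycle genes homology region (CHR).

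The start of several of these genes is printed here because the 2 waves differ in promoter elements and the arrays below are described by wave. Promoter windows from RefSeq (mouse build GRCm38.p6), each running from 250 bases before the annotated start to 50 bases after it, were at hand for 32 of the 38 genes, with 35 windows. Each stretch below covers the 150 bases before the start, read on the gene's strand, and the capitals mark every match on either strand to the CHR letters (TTTGAA or TTCGAA, the second of which is its own reverse complement), to the CCAAT box (CCAAT) or to an E2F site (TTTGGCGC or TTTCCCGC). Cdk1, Top2a, Mki67 and Kif11 stand for genes of G2 and mitosis, and Mcm6 and Mcm5 for genes of replication. The stretches lie at chr10:69352913-69353062 (Cdk1, minus strand), chr11:99024190-99024339 (Top2a, minus strand), chr7:135716380-135716529 (Mki67, minus strand), chr19:37376232-37376381 (Kif11, plus strand), chr1:128359706-128359855 (Mcm6, minus strand) and chr8:75109359-75109508 (Mcm5, plus strand).
Cdk1: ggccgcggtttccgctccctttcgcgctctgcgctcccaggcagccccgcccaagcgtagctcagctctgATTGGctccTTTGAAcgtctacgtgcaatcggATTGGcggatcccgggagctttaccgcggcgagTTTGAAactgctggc
Top2a: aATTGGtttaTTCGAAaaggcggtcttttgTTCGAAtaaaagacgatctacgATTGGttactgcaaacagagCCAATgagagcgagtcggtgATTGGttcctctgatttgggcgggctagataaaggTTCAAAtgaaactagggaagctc
Mki67: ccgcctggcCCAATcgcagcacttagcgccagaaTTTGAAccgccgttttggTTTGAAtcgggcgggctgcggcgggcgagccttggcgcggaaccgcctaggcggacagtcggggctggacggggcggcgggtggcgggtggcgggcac
Kif11: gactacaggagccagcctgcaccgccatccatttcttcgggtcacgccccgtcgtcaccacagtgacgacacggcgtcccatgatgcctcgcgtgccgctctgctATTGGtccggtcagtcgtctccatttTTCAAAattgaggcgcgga
Mcm6: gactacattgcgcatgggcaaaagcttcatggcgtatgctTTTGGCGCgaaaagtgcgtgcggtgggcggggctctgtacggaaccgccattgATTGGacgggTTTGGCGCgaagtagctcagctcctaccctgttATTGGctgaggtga
Mcm5: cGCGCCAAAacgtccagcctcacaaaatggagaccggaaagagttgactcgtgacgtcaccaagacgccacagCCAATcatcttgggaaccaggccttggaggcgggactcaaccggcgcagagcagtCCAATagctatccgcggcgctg

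The Cdk1, Top2a, Mki67 and Kif11 stretches hold CHR letters and CCAAT boxes and no E2F letters, and those of Mcm6 and Mcm5 hold E2F letters and CCAAT boxes and no CHR letters. Over the full windows, CHR letters stood in 21 of the 35 windows of these genes (60.0%), against 19.2% of all 32851 windows. CCAAT letters stood in 29 windows (82.9% against 37.4%), and CHR with CCAAT in 21 (60.0% against 7.52%). E2F letters stood in 5 windows (14.3% against 1.56%), those of Cdc6, Mcm3, Mcm5, Mcm6 and Mcm7. The letters did not separate the genes by wave. Of the replication genes, Mcm2, Mcm7 and Cdc45 had CHR letters, and Mcm2, Cdc45, Rrm1, Rrm2, Tyms, Pcna and Ccne1 had no E2F letters. Of the mitotic genes, Birc5, Cenpe and Nusap1 had no CHR letters. A match of letters is a description and not a bound site, and the motifs were chosen with results of these data known.

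The labels were first checked on the targeted genes. The Sting1 signal was 7.51, 6.40 and 4.56 in the arrays labelled WT and 6.87, 8.09 and 7.33 in IL10KO, against 4.28 to 4.40 in SKO and 4.13 to 4.34 in DKO. The library labelled WT replicate 3 thus lay near the range of the STING knockouts, and the main values of the comparisons that use it are given without it too. The Il10 probe set was higher, not lower, in both Il10-null genotypes (4.33 to 5.47 against 3.59 to 3.82), so it checks nothing about that deletion. The medians of the 12 arrays over all 41345 probe sets ran from 4.80 to 5.02, and no arrays held identical values. Colonocyte markers had mean log2 signals of 9.83 to 10.87 in every array, and the libraries labelled WT replicates 1 and 2 also carried signal of pancreatic acinar enzymes, with medians 2.25 and 6.75 above the usual level of those genes.

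Over the 38 genes, DKO colon had the highest signals and SKO colon the lowest, and none of the genes passed the test in any comparison. For each gene the array's log2 signal was set against that gene's median over the 12 arrays, and the median of these deviations over the 38 genes summarised an array. It was 0.19, -0.08 and -0.10 in WT, -0.13, -0.41 and -0.11 in SKO, -0.10, 0.01 and 0.08 in IL10KO, and 0.26, 0.11 and 0.14 in DKO. The 3 DKO arrays lay above every SKO and every IL10KO array, but not above the library labelled WT replicate 1. The genotype mean was highest in DKO for 29 genes, in IL10KO for 6 and in WT for 3, and lowest in SKO for 30 genes, in IL10KO for 6 and in WT for 2. A single array weighed on the low end, since SKO replicate 2 was the lowest of the 12 for 23 of the 38 genes. At the high end DKO replicate 1 was the highest array for 11 genes and the library labelled WT replicate 1 for 7. In several arrays most of the 38 genes lay on the same side. SKO replicate 2 lay below the gene's median for 38 genes and DKO replicate 1 above it for 35. IL10KO replicate 2 was split, with 18 below and 20 above. Counts over the 38 genes are thus not counts of independent observations. In whole tissue, fewer dividing cells and less of these RNAs per cell cannot be told apart.

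**Figure D1:**
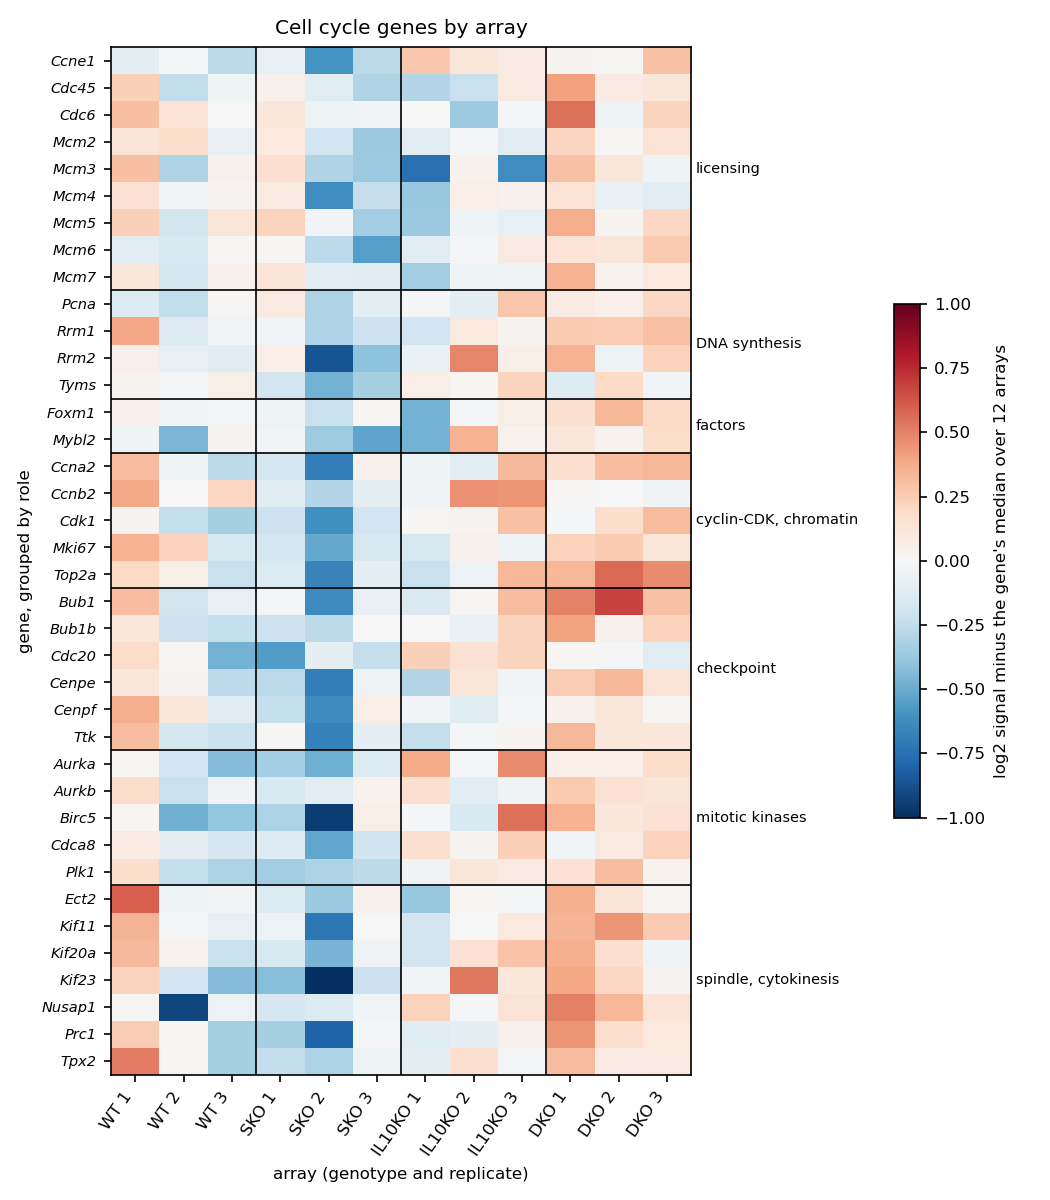
Heat map of the 38 cell cycle genes (vertical axis, grouped by role) in the 12 arrays (horizontal axis), coloured by the log2 signal minus the gene's median over the arrays, on a scale from -1 to 1, with values beyond it drawn at its end. SKO replicate 2 shows the darkest blue column, with the lowest value of 23 genes, and the 3 DKO columns are mostly red.

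Loss of both proteins was set against loss of STING alone to see the effect of IL-10 deficiency where STING is absent. All 38 genes had a higher mean in DKO than in SKO, with a median difference of 0.40 and a range of 0.16 to 0.83 on the log2 scale, while 43.5% of all genes had a higher mean and the median over all genes was -0.03. None was called at an adjusted p under 0.05 by limma (background of calls in this comparison, 0.0451%), and the smallest adjusted p was 0.387. At an unadjusted p under 0.05, limma gave 20 of the 38 as higher and none as lower, where 2.12% of all genes were higher and 2.65% lower at that p. The arrays of DKO lay above those of SKO without overlap for 26 of the 38 (4.87% of all genes), and for none did they lie below (6.28%). Of the 95% confidence intervals, 31 lay within a 2-fold change either way, that is, within -1 and 1 on the log2 scale.

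Top2a, the topoisomerase that untangles sister chromatids, had the smallest p. Its log2 signal was 8.33, 8.57 and 8.47 in DKO and 7.86, 7.33 and 7.90 in SKO, next to 8.20, 8.06 and 7.78 in WT and 7.78, 7.94 and 8.33 in IL10KO. Its DKO arrays lay above all others, though IL10KO replicate 3 equalled DKO replicate 1 to the second decimal. The difference between DKO and SKO was 0.76 ± 0.19 (SE; 95% confidence interval 0.36 to 1.16, p 0.00123, limma adjusted p 0.387). The promoter stretch of Top2a printed above holds 3 CHR matches, of which the 2 TTCGAA matches read the same on both strands.

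Kif23, the kinesin of the central spindle in cytokinesis, had the largest difference, 0.83 ± 0.25 (interval 0.30 to 1.36, limma adjusted p 0.711). Its DKO arrays read 7.58, 7.40 and 7.22 and its SKO arrays 6.77, 5.97 and 6.98, so the size of the difference leaned on SKO replicate 2. IL10KO arrays of Kif23, at 7.17, 7.72 and 7.30, were as high as those of DKO, and WT arrays read 7.42, 7.0 and 6.76. Mki67, which encodes the Ki-67 protein that coats mitotic chromosomes, read 9.79, 9.82 and 9.68 in DKO against 9.39, 9.05 and 9.40 in SKO, and the 2 genotypes did not overlap. WT reached from the SKO level to above the DKO level, with 9.91, 9.79 and 9.40, and IL10KO arrays read 9.40, 9.60 and 9.52, below all DKO arrays. The Mki67 difference between DKO and SKO was 0.48 ± 0.15 (limma adjusted p 0.798).

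Among the other genes of S and G2 phase, Cdk1, the kinase that drives entry into mitosis, read 7.05, 7.24 and 7.38 in DKO and 6.86, 6.45 and 6.87 in SKO, a difference of 0.50 ± 0.16. Its IL10KO arrays, at 7.08, 7.09 and 7.36, lay within the DKO range, and its WT arrays read 7.09, 6.83 and 6.73. Ccna2 (cyclin A2, the partner of CDK2 and CDK1) had a mean of 8.72 ± 0.09 (SD, n = 3) in DKO and 8.18 ± 0.38 in SKO. Ccnb2 (cyclin B2) differed least of the 38 genes, by 0.16 ± 0.15. It read 8.07, 8.06 and 8.02 in DKO and 7.93, 7.76 and 7.96 in SKO, with no overlap, but its IL10KO arrays (8.02, 8.51 and 8.50) and WT arrays (8.43, 8.05 and 8.26) reached higher than DKO.

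The spindle checkpoint holds chromosome segregation until every kinetochore is attached. Of its kinases, Bub1 read 6.21, 6.39 and 6.01 in DKO and 5.70, 5.08 and 5.64 in SKO, a difference of 0.73 ± 0.19 (limma adjusted p 0.499). Ttk (MPS1, the kinase at the head of the checkpoint) read 6.92, 6.69 and 6.69 against 6.60, 5.91 and 6.49, a difference of 0.44 ± 0.19. Neither gene's DKO arrays overlapped those of SKO. Cenpe, the kinetochore motor, differed by 0.58 ± 0.17 and Bub1b (BUBR1, which inhibits the anaphase-promoting complex) by 0.38 ± 0.15, also without overlap. Cdc20, the activator that the checkpoint restrains, and Cenpf, a kinetochore and microtubule protein, had overlapping arrays, with differences of 0.26 and 0.33.

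All 5 mitotic kinases and members of the chromosomal passenger complex had arrays in DKO that lay above those of SKO. Plk1, the polo-like kinase, read 8.39, 8.55 and 8.28 in DKO and 7.90, 7.94 and 7.98 in SKO, a difference of 0.47 ± 0.14 (limma adjusted p 0.758), and SKO replicate 2 did not stand apart for this gene. Birc5 (survivin) differed by 0.61 ± 0.24, Aurka (the kinase of the spindle poles) by 0.44 ± 0.16, Cdca8 (borealin) by 0.38 ± 0.14 and Aurkb (the kinase of the passenger complex) by 0.26. Birc5 values in SKO were widely spread, at 5.40, 4.77 and 5.78, against 6.07, 5.83 and 5.87 in DKO.

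Spindle motors and cytokinesis proteins had a median difference of 0.43, with 5 of 7 genes free of overlap. Kif11, the motor that pushes the spindle poles apart, read 7.99, 8.09 and 7.91 in DKO and 7.59, 6.93 and 7.65 in SKO, and Prc1, which bundles microtubules of the central spindle, read 8.20, 7.93 and 7.86 against 7.43, 6.96 and 7.75. Both differed by 0.61 and had no overlap. Nusap1 and Tpx2, which stabilise and nucleate spindle microtubules, differed by 0.43 ± 0.21 and 0.37 ± 0.19 without overlap. Ect2, the exchange factor that starts the cleavage furrow, and Kif20a, a motor of the central spindle, differed by 0.32 and 0.38 with overlapping arrays.

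The 9 genes of origin licensing and firing had the lowest median difference of the groups by role, 0.28, and the arrays of 3 of them did not overlap, namely Mcm6, Ccne1 (cyclin E1, which drives entry into S phase) and Cdc45 (which joins the helicase at firing). Mcm6, a subunit of the MCM helicase whose promoter is printed above, read 8.15, 8.12 and 8.27 in DKO and 8.02, 7.75 and 7.46 in SKO, a difference of 0.43 ± 0.15 (limma adjusted p 0.853). WT and IL10KO arrays of Mcm6 ran from 7.86 to 8.10, below all 3 DKO arrays. The other helicase subunits differed by 0.28 (Mcm2 and Mcm3), 0.25 (Mcm5), 0.24 (Mcm4) and 0.19 (Mcm7), and Cdc6, which loads the helicase, by 0.24, all with overlapping arrays. Of the genes of DNA synthesis, Rrm1 and Rrm2 (the subunits of ribonucleotide reductase) differed by 0.45 ± 0.15 and 0.58 ± 0.21, Tyms (thymidylate synthase) by 0.34 ± 0.13 and Pcna (the sliding clamp of the polymerases) by 0.22. The transcription factors Foxm1 and Mybl2 (B-MYB) differed by 0.31 and 0.41, both without overlap.

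These values were recomputed without SKO replicate 2. All 38 genes had the higher mean in DKO, with a median difference of 0.33, and 11 rather than 20 reached an unadjusted p under 0.05 in limma. Of all genes, 1.76% were then higher and 2.75% lower at that p. The differences of 12 genes moved by over 1.5 times, each to a smaller value: Kif23 from 0.83 to 0.53, Kif11 from 0.61 to 0.38, Birc5 from 0.61 to 0.33, Ttk from 0.44 to 0.22 and Mcm4 from 0.24 to 0.06, and likewise Ccna2, Ccnb2, Ccne1, Cenpf, Prc1, Pcna and Rrm2. Top2a (0.58), Bub1 (0.53), Plk1 (0.47) and Mcm6 (0.44) moved by less. With array weights, 34 of the 38 genes had a higher mean in DKO. At an unadjusted p under 0.05, limma with these weights gave 23 of the 38 as higher and none as lower. Of all genes, 10.5% were higher and 16.6% lower at that p. At an adjusted p under 0.05, 16 of the 38 were called, but the share of all genes called with these weights was not computed. The weights gave SKO replicate 1 a value of 13.6, and their estimation stopped before it converged. With the gene-by-gene algorithm for the weights, chosen after the data were seen, none was called.

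**Figure D2:**
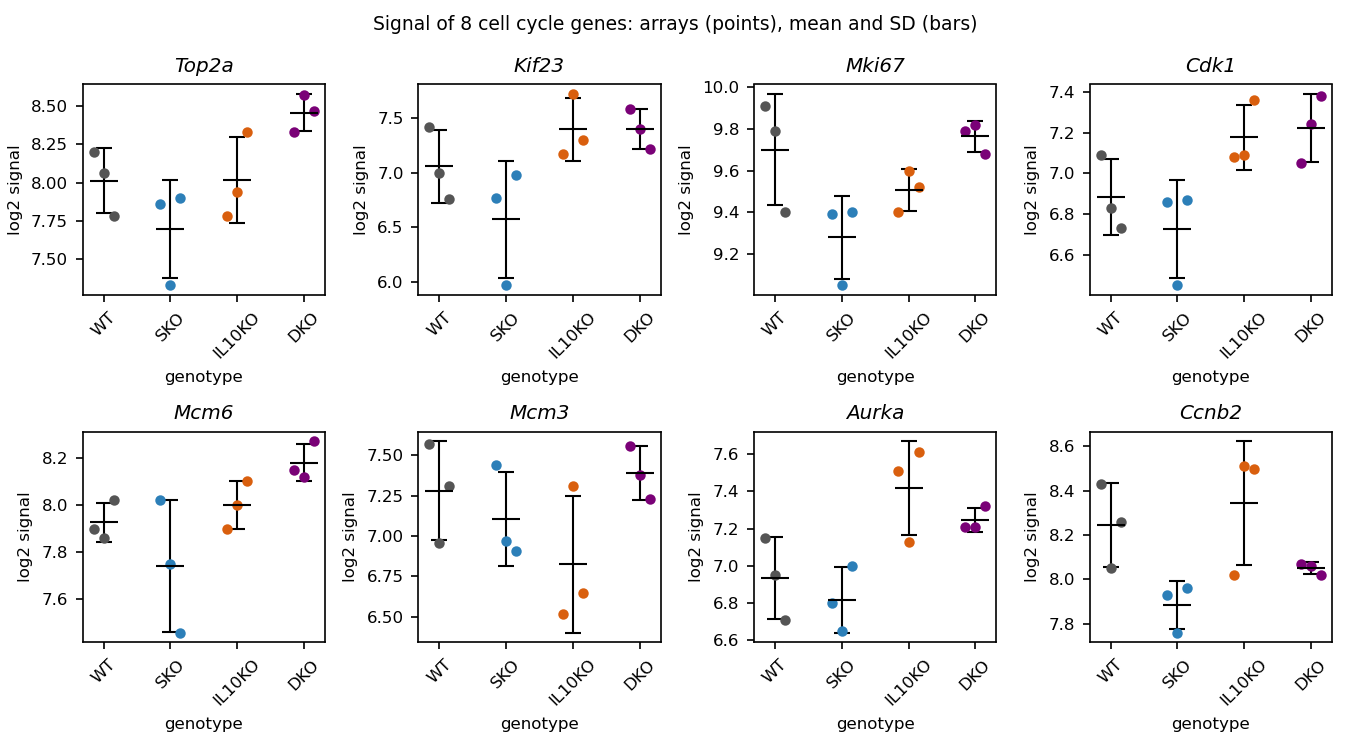
Log2 signal (vertical axis, its own range in each panel) of 8 cell cycle genes by genotype (horizontal axis), with each array as a point and the mean and SD of 3 arrays as black bars. DKO arrays of Top2a, Kif23, Mki67, Cdk1 and Mcm6 lie above the SKO arrays, and IL10KO arrays are high for Aurka and low in 2 of 3 arrays for Mcm3.

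Loss of STING alone was compared with WT. Of the 38 genes, 2 had a higher mean in SKO (53.3% of all genes had) and 36 a lower mean, with a median difference of -0.22 and a range of -0.49 to 0.21, against a median of 0.01 over all genes. No gene of the whole table was called by limma in this comparison (0%). At an unadjusted p under 0.05, limma gave 4 of the 38 as lower and none as higher, where 0.947% of all genes were lower and 1.10% higher at that p: Mki67 (-0.42 ± 0.15), Cenpf (-0.39 ± 0.17), Ccnb2 (-0.36 ± 0.15) and Tyms (-0.35 ± 0.13). Arrays did not overlap for Ccnb2 and Tyms, or 2 of 38, where 2.46% of all genes were lower and 3.75% higher without overlap. Tyms read 7.45, 7.40 and 7.48 in WT and 7.23, 6.95 and 7.09 in SKO. Without SKO replicate 2 none of the 38 had an unadjusted p under 0.05 in limma (Mki67 0.0775, Tyms 0.0613, Ccnb2 0.0983, Cenpf 0.225), and the median difference was -0.12. Leaving out the libraries labelled WT replicates 1, 2 and 3 in turn gave 1, 2 and 6 lower genes at that p, and leaving out SKO replicates 1 and 3 gave 6 and 8. Of all genes, 0.555%, 0.735%, 1.92%, 1.01% and 1.1% were lower at that p in these fits, in the same order. The median was -0.11 without the library labelled WT replicate 1 and -0.31 without the library labelled WT replicate 3. Confidence intervals of 37 of the 38 genes lay within -1 and 1.

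Loss of IL-10 alone, in mice that have STING, left the 38 genes spread on both sides of WT. The median difference was 0.04 and the range -0.45 to 0.48, with 21 of the 38 genes higher, against 53.6% of all genes and a median of 0.03. None was called by limma, in a comparison in which 8.14% of all genes were called, and the smallest adjusted p was 0.0812. At an unadjusted p under 0.05, limma gave 1 of the 38, Aurka, as higher and none as lower, where 11.6% of all genes were higher and 14.6% lower at that p. The arrays of 1 gene, Ccne1, lay higher in IL10KO without overlap, and none lower, where 14.0% of all genes were higher and 16.0% lower without overlap. All 38 confidence intervals lay within -1 and 1, so changes beyond 2-fold fall outside every interval. The sign of the median turned with single WT libraries: it was -0.09 without the library labelled WT replicate 3 and 0.13 without the library labelled WT replicate 1.

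All 5 genes of the mitotic kinases and the passenger complex had a higher mean than in WT, with a median of 0.20, and 7 of the 9 licensing genes had a lower mean, with a median of -0.14. These medians became 0.15 and -0.16 when the library labelled WT replicate 3 was left out, and the difference between the groups of genes was not tested. Aurka read 7.51, 7.13 and 7.61 in IL10KO and 7.15, 6.95 and 6.71 in WT, a difference of 0.48 ± 0.16 (interval 0.13 to 0.83, limma adjusted p 0.0812). The lowest IL10KO array of Aurka lay just under the highest WT array. After quantile normalization Aurka was called (limma adjusted p 0.0421), the single such gene of the 38, and without the library labelled WT replicate 3 its difference was 0.37 ± 0.18 (limma adjusted p 0.257). Mcm3 read 6.52, 7.31 and 6.65 in IL10KO and 7.57, 6.96 and 7.31 in WT, a difference of -0.45 ± 0.22, with IL10KO replicate 2 within the WT range. Without IL10KO replicate 2, limma called 2 of the 38 genes, Aurka and Mcm3, with a smallest adjusted p of 0.024. At an unadjusted p under 0.05, limma then gave 1 of the 38 as higher and 1 as lower (14% and 17.4% of all genes). The share of all genes called was not computed in that fit or after quantile normalization. Ccne1 read 6.21, 6.06 and 6.02 in IL10KO against 5.85, 5.93 and 5.68 in WT. Birc5 and Nusap1 differed by 0.41 and 0.44, and the library labelled WT replicate 2 held the low Nusap1 value, 6.26 against 7.19 and 7.12.

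Markers of other cell types differed in this comparison, in which limma called 5.01% of all genes lower and 3.12% higher. Smooth muscle markers were called lower in IL10KO for 10 of 12 genes, with mean log2 signals of the list of 8.98 to 9.15 in IL10KO and 9.86 to 9.99 in WT. Neutrophil and monocyte markers were called higher for 10 of 12, with 6.22 to 7.62 against 4.38 to 4.71, and stratified squamous markers for 12 of 17, with 5.16 to 6.86 against 4.34 to 4.42. Colonocyte markers were called lower for 8 of 14 and higher for 1. T cell markers were called higher for 5 of 12, with a median difference of 0.58, and plasma cell markers for 2 of 9. The share of all genes called was not computed without the library labelled WT replicate 3. In that fit, 9 smooth muscle and 9 colonocyte markers were called lower. In the same fit, 10 neutrophil and monocyte, 7 squamous, 2 plasma cell and 1 T cell markers were called higher. Their part in the values of the cell cycle genes was not tested.

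The DKO was compared with IL10KO to see what loss of STING does where IL-10 is absent. Of the 38 genes, 32 had a higher mean in DKO, with a median difference of 0.17 and a range of -0.30 to 0.56, while 45.5% of all genes were higher and their median was -0.04. None was called by limma, in a comparison in which 5.79% of all genes were called, and the smallest adjusted p was 0.141. At an unadjusted p under 0.05, limma gave 5 as higher and none as lower, where 12.6% of all genes were higher and 11.8% lower at that p, so the share of the 38 that was higher was close to the background. This count was 1 higher and 1 lower without IL10KO replicate 1 (8.86% and 9.44% of all genes). It was 2 higher without DKO replicate 1 (8.12%) and 3 higher without DKO replicate 2 (10.6%) or DKO replicate 3 (12.4%). Centring each array on its median gave 9 higher (15.6%) and moved the median over all genes to 0.05. Arrays did not overlap for 14 genes higher in DKO and 1 lower, Cdc20, where 13.4% of all genes were higher and 13.8% lower without overlap. After quantile normalization 7 rather than 14 genes were higher without overlap, and Ccnb2 was called lower (limma adjusted p 0.047). The shares of all genes without overlap or called were not computed for those values. At an unadjusted p under 0.05, limma then gave 5 of the 38 as higher and 1 as lower (11.4% and 10.9% of all genes).

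Of the groups by role, licensing genes had the highest median difference, 0.30, and the genes of DNA synthesis the lowest, 0.04, which is a description and was not tested. Mcm3 differed most, by 0.56 ± 0.22 (interval 0.09 to 1.04, limma adjusted p 0.141), with DKO arrays at 7.56, 7.38 and 7.23 and IL10KO replicate 2 within that range. Without IL10KO replicate 2, Mcm3 was called (limma adjusted p 0.0302). At an unadjusted p under 0.05, limma then gave 4 of the 38 as higher and none as lower (15.8% and 14% of all genes). Mcm5 read 8.16, 7.83 and 8.01 in DKO and 7.43, 7.76 and 7.72 in IL10KO without overlap, a difference of 0.36 ± 0.17, and Mcm7 differed by 0.30 ± 0.14, also without overlap. Cdc6 differed by 0.38 ± 0.16, with IL10KO replicates 1 and 3 just above DKO replicate 2. Foxm1, the factor of the G2 wave, read 6.66, 6.83 and 6.69 in DKO and 6.03, 6.48 and 6.56 in IL10KO, with no overlap and a difference of 0.37 ± 0.15 (limma adjusted p 0.142). Top2a differed by 0.44 ± 0.19 without overlap and Bub1 by 0.43 ± 0.19 with DKO replicate 3 just under IL10KO replicate 3. Genes with the opposite sign were Ccnb2 (-0.30), Cdc20 (-0.24), Aurka (-0.17), Tyms (-0.09), Ccne1 (-0.05) and Cdca8 (-0.05). Cdc20 read 7.71, 7.68 and 7.59 in DKO and 7.93, 7.85 and 7.92 in IL10KO.

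Smooth muscle markers differed here as well, with 10 of 12 called higher in DKO (mean log2 signals of 9.82 to 10.11), and 10 of 12 neutrophil and monocyte markers called lower (4.60 to 4.63). Over all genes, limma called 3.34% higher and 2.45% lower in DKO against IL10KO. Colonocyte markers were called higher for 8 of 14 (median difference 0.72), squamous markers lower for 7 of 17 (-1.45) and T cell markers lower for 2 of 12 (-0.51). Their part in the values of the cell cycle genes was not tested. The comparisons of IL10KO with WT and of DKO with IL10KO share the IL10KO arrays, so a gene low in those arrays is lower in the former and higher in the latter.

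**Figure D3:**
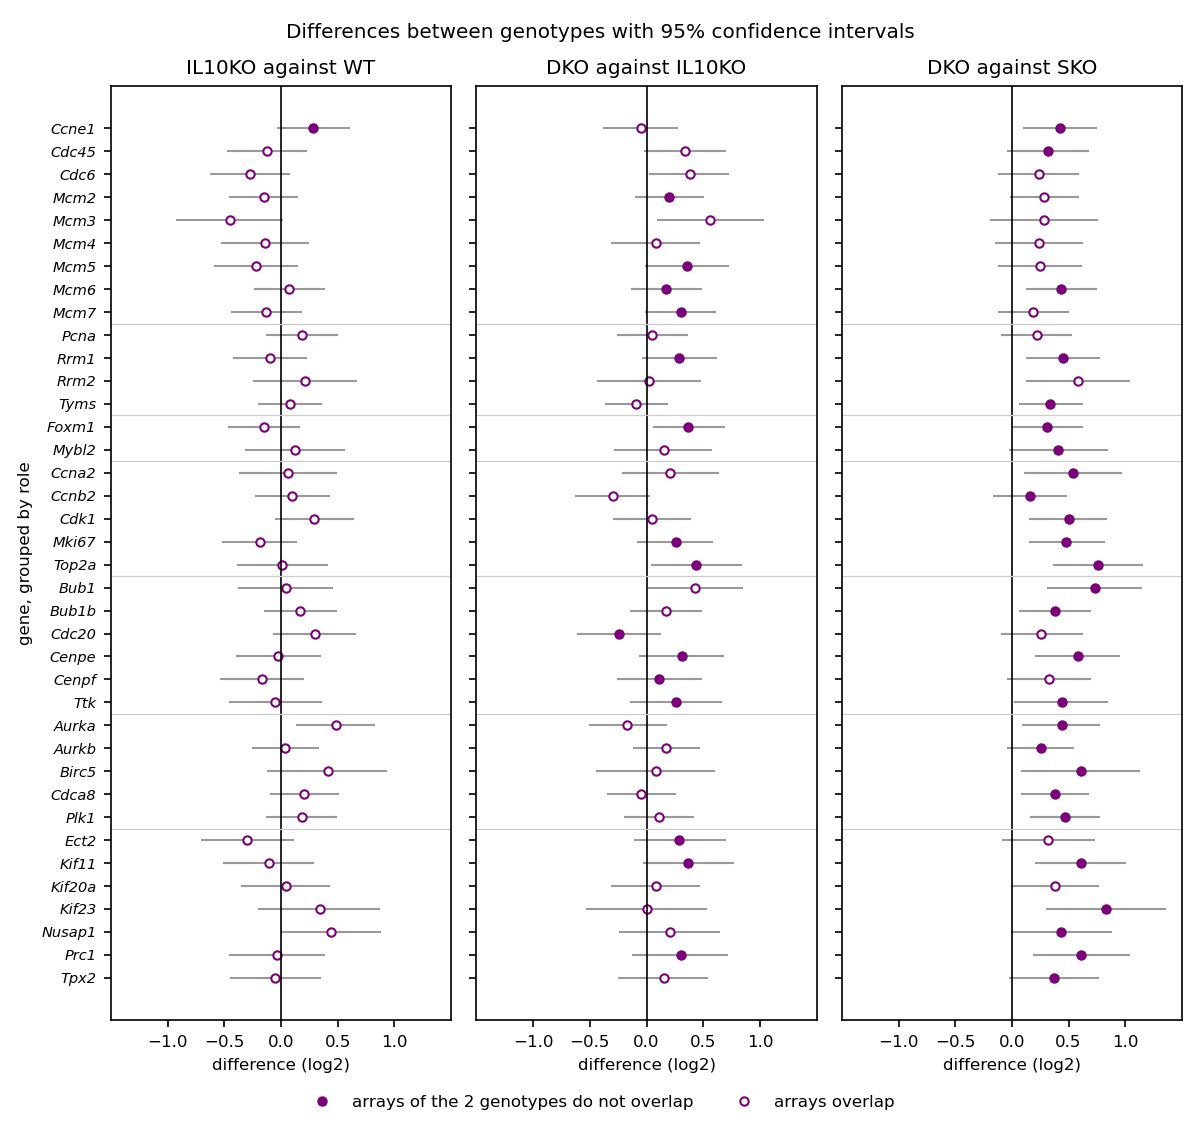
Differences of mean log2 signal (horizontal axis) for the 38 cell cycle genes (vertical axis, grouped by role) in 3 comparisons, with 95% confidence intervals of the limma fit as grey lines and filled points where the arrays of the 2 genotypes do not overlap. In DKO against SKO all 38 points lie above 0 and 26 are filled, in DKO against IL10KO 15 are filled, and in IL10KO against WT the points spread on both sides and 1 is filled.

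Set against WT, DKO colon had the higher mean for 33 of the 38 genes, with a median difference of 0.22 and a range of -0.20 to 0.65 (45.6% of all genes were higher, with a median of -0.02). None was called by limma (0.0451% of all genes were), and every adjusted p rounded to 1. At an unadjusted p under 0.05, limma gave 4 genes as higher and none as lower, where 1.51% of all genes were higher and 1.41% lower at that p: Nusap1 (0.65 ± 0.21), Bub1 (0.47 ± 0.19), Top2a (0.45 ± 0.19) and Bub1b (0.34 ± 0.15). Arrays did not overlap for 10 genes, all higher in DKO, where 4.34% of all genes were higher and 5.06% lower without overlap. These 10 included both transcription factors, Foxm1 (6.66, 6.83 and 6.69 against 6.55, 6.47 and 6.49) and Mybl2 (7.05, 6.97 and 7.12 against 6.90, 6.48 and 6.96). Without the library labelled WT replicate 3 the median difference was 0.17 and 1 gene, Nusap1, had an unadjusted p under 0.05 in limma, with Bub1 at 0.0832, Top2a at 0.134 and Bub1b at 0.138. Leaving out DKO replicate 2 or DKO replicate 3 gave 2 such genes, leaving out the library labelled WT replicate 2 gave 1, and leaving out the library labelled WT replicate 1 gave 9, with a median of 0.29. The share of all genes higher at that p ran from 0.902% to 1.69% in these fits.

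The effect of losing IL-10 was then compared between mice with and without STING, as the difference between DKO and SKO minus the difference between IL10KO and WT. It was above 0 for 35 of the 38 genes, with a median of 0.40 and a range of -0.05 to 0.75, where 45.7% of all genes were above 0 and their median was -0.04. None was called by limma (0.645% of all genes were), and the smallest adjusted p was 0.19, for Mki67 (0.67 ± 0.22, interval 0.20 to 1.14). At an unadjusted p under 0.05, limma gave 12 genes above 0 and none below, where 7.85% of all genes were above 0 and 7.84% below at that p. The largest values were those of Top2a (0.75 ± 0.26), Mcm3 (0.74 ± 0.31), Kif11 (0.72 ± 0.26) and Bub1 (0.69 ± 0.28). Confidence intervals of 15 genes reached beyond -1 or 1, so at 3 arrays a genotype these data leave the size wide for many of the genes. With array weights the median was 0.19, and with the gene-by-gene algorithm 0.25. Without the library labelled WT replicate 3 the median was 0.45 and 36 genes were above 0. In that fit 12 of the 38 were above 0 at an unadjusted p under 0.05 in limma, where 7.01% of all genes were. That count fell to 2, 3 and 4 when the library labelled WT replicate 1, SKO replicate 2 and IL10KO replicate 1 were left out in turn. Of all genes, 5.95%, 5.24% and 5.87% were then above 0 at that p. The count was 7 without DKO replicate 1 (5.14% of all genes) or DKO replicate 2 (6.65%).

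By promoter letters, the 19 genes with CHR letters had a median difference of 0.44 between DKO and SKO, with 14 free of overlap, and the 13 without had 0.42, with 8 free of overlap. The 5 genes with E2F letters, printed above for Mcm6 and Mcm5, had 0.25 between DKO and SKO, 0.36 between DKO and IL10KO and -0.22 between IL10KO and WT. For the 9 genes with neither CHR nor E2F letters these medians were 0.43, 0.08 and 0.18. These groups are small, all 5 genes with E2F letters are licensing genes, and no difference between them was tested.

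Outside the 38, 161 of 173 listed genes of the cell cycle machinery had a value. In IL10KO against WT, limma called 5 of the 161 lower and 2 higher (background 5.01% lower and 3.12% higher). Neither share was above the background of all genes. Wee1, the kinase that holds CDK1 inactive until mitosis, fell by 0.99 on the log2 scale (SE 0.25, limma adjusted p 0.0279). Its arrays read 5.53, 6.56 and 6.26 in IL10KO and 7.14, 6.87 and 7.31 in WT, with no overlap. Cdk6, the D cyclin kinase, fell by 0.77 (adjusted p 0.025), Rb1, the retinoblastoma protein that holds E2F inactive, by 0.64 (adjusted p 0.0374), Chek2, the DNA damage checkpoint kinase, by 0.54 (adjusted p 0.049) and Lin52, a subunit of MuvB, by 0.40 (adjusted p 0.0495). The genes that rose were Ube2s, which extends ubiquitin chains for the anaphase-promoting complex, by 0.71 ± 0.17 (adjusted p 0.0211), and Cks1b, a small subunit of the cyclin-dependent kinases, by 0.48 ± 0.14 (adjusted p 0.0451). Ube2s read 8.66, 8.22 and 8.91 in IL10KO and 7.82, 7.95 and 7.90 in WT.

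In DKO against IL10KO, 5 of the 161 were called higher and none lower (background 3.34% higher and 2.45% lower). Again neither share was above the background. At an unadjusted p under 0.05, limma gave 32 as higher and 3 as lower, where 12.6% of all genes were higher and 11.8% lower. Wee1 was higher in DKO by 1.0 ± 0.25 (adjusted p 0.0317), Chek2 by 0.68 ± 0.16 (adjusted p 0.0227), Rb1 by 0.65 ± 0.17 (adjusted p 0.0425), Lin52 by 0.56 ± 0.12 (adjusted p 0.014) and Rbl1, the p107 relative of Rb1, by 0.48 ± 0.13 (adjusted p 0.049). DKO arrays of Wee1 read 7.28, 6.95 and 7.13, within the span of the WT arrays. Lin52 read 7.44, 7.35 and 7.47 in DKO and 6.76, 6.91 and 6.91 in IL10KO, and it kept its call in 11 of 12 fits that each left out 1 array, losing it without DKO replicate 1 (adjusted p 0.0584). The other calls in both comparisons ended under 4 or more of the 12 omissions, and each of them ended without IL10KO replicate 1 and without IL10KO replicate 3. For IL10KO against WT, none of the 161 was called when IL10KO replicate 1, IL10KO replicate 3 or the library labelled WT replicate 3 was left out, and 18 were called without IL10KO replicate 2. For DKO against IL10KO the count was 0 without DKO replicate 1 and 12 without IL10KO replicate 2. The share of all genes called was not computed in these fits, so the counts have no background. In IL10KO against WT without IL10KO replicate 2, 14% of all genes were higher and 17.4% lower at an unadjusted p under 0.05 in limma. With all arrays these shares were 11.6% and 14.6%. In DKO against IL10KO they were 15.8% and 14% without it, and 12.6% and 11.8% with all arrays.

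No CDK inhibitor and no p53 target was called in these comparisons. The CDK inhibitors with the largest differences in IL10KO against WT were Cdkn1b (p27, -0.50 ± 0.16) and Cdkn2b (p15, -0.29 ± 0.15), and of the p53 targets these were Tnfrsf10b (-0.62 ± 0.25) and Mdm2 (-0.48 ± 0.19). In DKO against SKO, none of the 161 was called, 26 were higher and none lower at an unadjusted p under 0.05 in limma, and 131 had the higher mean in DKO, with a median difference of 0.21. Over all genes, 0.0451% were called, 2.12% were higher and 2.65% lower at that p, and 43.5% had the higher mean. The list of other spindle and cytokinesis genes had a median of 0.33 with all 30 above 0, led by Depdc1a (0.76 ± 0.20) and Hmmr (0.72 ± 0.19), and the kinetochore, cohesin and condensin list had 0.36 with 26 of 27 above 0. The D cyclins and their kinases had a median of 0.04 and the CDK inhibitors of 0.00.

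The level of the 38 genes was set beside markers of cell types that divide or feed RNA into the tissue. B cell and germinal centre markers (13 genes) had median deviations of 1.29, -0.04 and -0.37 in the libraries labelled WT, -0.48, 0.07 and -0.42 in SKO, -0.08, 0.00 and 0.25 in IL10KO and -0.30, 0.51 and 0.29 in DKO. They were thus highest in the library labelled WT replicate 1, in which 7 of the 38 genes peaked. In DKO against SKO 12 of the 13 had the higher mean, with a median difference of 0.38 and none called (0.0451% of all genes were). Their mean signals ran from 5.16 to 5.97 in DKO and from 4.98 to 5.59 in SKO. In SKO against WT all 13 had the lower mean (median -0.46), and 12 were above 0 in the difference of the IL-10 effect (0.43). Their part in the result was not tested. DKO replicate 1, the array with the highest level of the 38 genes, had a B cell level of -0.30, and SKO replicate 2, with the lowest, had 0.07. Markers of crypt stem and progenitor cells (14 genes) and of colonocytes (14 genes) each differed by a median of 0.02 between DKO and SKO, plasma cell markers (9 genes) by 0.29 and T cell markers (12 genes) by 0.11, with none called.

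**Figure D4:**
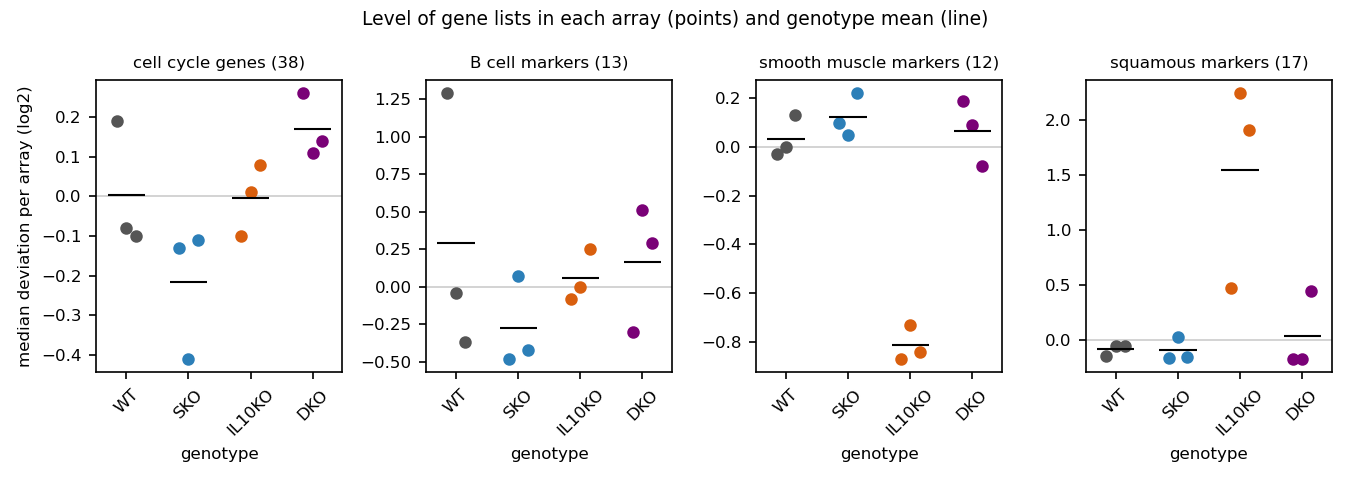
Median deviation of log2 signal per array (vertical axis, its own range in each panel) for the 38 cell cycle genes and for 3 marker lists by genotype (horizontal axis), with arrays as points and the genotype mean as a line. The cell cycle genes are highest in DKO and lowest in SKO, B cell markers peak at 1.29 in the library labelled WT replicate 1, smooth muscle markers are low in the 3 IL10KO arrays and squamous markers are high in 2 of them.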

How the data were processed

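Colon RNA of 12 samples (3 per genotype, 300 ng per array) was measured on Affymetrix whole-transcript arrays. The authors deposited 1 table of log2 signals. The submitters' processing notes name Affymetrix Expression Console 1.3.1.187; background correction, normalization and build were not given in the sources used here. The log2 scale rests on the values' range. Without detection calls, dim signals cannot be called absent, and precision is limited by the number of arrays. Of 41345 probe sets, 23521 had exactly 1 symbol, 1814 several and 16010 none in the platform annotation; the brightest per gene gave 22180 genes.

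All arrays were fitted with limma 3.58.1 in R 4.3.3 (a mean per genotype, lmFit and eBayes). Differences are given ± SE, tests were 2-sided, p-values were adjusted by Benjamini-Hochberg over all 22180 genes, and a call is an adjusted p under 0.05. Groups come from the genotype labels, and replicates were numbered in sample order, which pairs nothing. Dates in the labels run on by 1 year per sample and were not used as batches.

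Genes, lists, motifs and tests were chosen with earlier results of these data known. All 38 genes are named. Of other cell cycle lists, the called genes are named, or the 2 with the largest difference in some lists without a call. Depdc1a and Hmmr are such a pair for their list. No gene is named from the kinetochore, cohesin and condensin list or from the origin recognition and replication fork list, which had no call. The steps were tested on simulated data. Alternatives left out each array or the dimmest 33.3% of genes, or used array weights, quantile normalization, centring on array medians, all probe sets, probe sets averaged per gene, a trended and robust variance prior or only the genotypes compared.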

Additional observations from a re-analysis of the deposited data

How the results depend on the processing

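No called gene changed sign under the alternatives run, while the median over the 38 genes in IL10KO against WT took both signs when single arrays were left out and was -0.03 with median centring. Calls among the 38 genes were 0 in every comparison except under the settings given here. Quantile normalization gave 1 in IL10KO against WT and 1 in DKO against IL10KO, and 7 genes without overlap in the latter. Array weights gave 16 in DKO against SKO. At an unadjusted p under 0.05, limma with these weights gave 23 of the 38 as higher there and none as lower. Of all genes, 10.5% were higher and 16.6% lower at that p. Leaving out single arrays gave 0 to 2 calls in IL10KO against WT, 0 to 1 in DKO against IL10KO and 0 in the other comparisons. The median over the 38 genes then ran from -0.09 to 0.13 (IL10KO against WT), 0.14 to 0.22 (DKO against IL10KO), 0.14 to 0.29 (DKO against WT), -0.32 to -0.11 (SKO against WT), 0.33 to 0.45 (DKO against SKO) and 0.28 to 0.51 (difference of the IL-10 effect). Genes higher without overlap ran from 14 to 20 (DKO against IL10KO), 10 to 26 (DKO against WT) and 26 to 33 (DKO against SKO), counts that cannot fall when an array is left out and so say nothing about stability. With array weights and their gene-by-gene algorithm, the median was -0.08 and -0.09 for SKO against WT and 0.19 and 0.25 for the difference of the IL-10 effect. Of the 161 other cell cycle genes, calls in IL10KO against WT were 4 with median centring, 11 without the dimmest genes, 0 with only the genotypes compared, 0 with all probe sets, 0 without 3 arrays together (SKO replicate 2, IL10KO replicate 1 and the library labelled WT replicate 3), and 0 to 18 without single arrays. In DKO against IL10KO they were 0 with only the genotypes compared, 1 with all probe sets, 3 without those 3 arrays and 0 to 12 without single arrays. Array weights gave 12 in DKO against SKO and 1 for the difference of the IL-10 effect, which had 0 to 1 without single arrays. The share of all genes called or without overlap was not computed under the alternatives, so these counts have no background. The cause was not tested. The gene-by-gene algorithm, the omission of 3 arrays, the counts without overlap and the counts of other genes were chosen after seeing the data. No paired analysis was possible because the labels give the genotypes no shared replicate numbers.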
